A study of Mus musculus with 12 samples.

Results

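The granulocytic cells were the cells that the deposited annotation puts in cluster 16, which held 529 of 93126 cells. They were chosen by that cluster number alone, and came from 47 of the 48 tumors. The authors made the clusters from expression, so the genes that set these cells apart describe the choice, and no test of them against the other cells is given. Tumors, not cells, were the replicates of a condition, although a response class belongs to the host strain and not to the tumor.

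Granulocytes are short-lived white blood cells, most of them neutrophils, which are formed in the bone marrow and reach tissue through the blood. They carry antimicrobial proteins in granules that are laid down in order as the cells mature, follow chemokines through the receptor Cxcr2, and depend on the growth factor receptor Csf3r. In tumors, neutrophils that hold back T cells are often called granulocytic myeloid-derived suppressor cells.

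All tumors were of MC38, a mouse colon carcinoma line, grown under the skin of female mice aged 8 to 12 weeks, and were measured by single-cell RNA sequencing from the 5′ end. Hosts were C57BL/6J (B6) mice or F1 animals of C57BL/6J and 1 of 7 Collaborative Cross strains (CC001/UncJ, CC002/UncJ, CC007/UncJ, CC036/UncJ, CC075/UncJ, CC079/TauUncJ and CC080/TauUncJ), so that every host carried a B6 genome copy. Animals were injected once with 200 µg of either an isotype control or a PD-1 blocking antibody (aPD1), and tumors were removed after 48 h. The study classed CC001, CC002 and CC075 hosts as responders to aPD1 and CC036, CC079 and CC080 hosts as non-responders, from how tumors grew in its earlier screen, while B6 and CC007 hosts had no class. That gave 10 isotype and 10 aPD1 tumors of responder strains, 9 and 9 of non-responder strains, and 5 and 5 of B6 and CC007 hosts. Tumors were frozen, thawed and sorted to 90% CD45+ and 10% CD45− cells, so a share below is a share of thawed, sorted cells and not of the tumor. A graft of 1 cell line is also a limited model of a tumor that arises in place.

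Transcripts were counted by unique molecular identifiers (UMIs), and the granulocytic cells had the lowest UMI counts of the 27 clusters. Their median was 815 UMIs and 436 genes per cell, against 3333.5 UMIs and 1454 genes over all cells. In 41 of 47 tumors their median was below a ratio of 1/3 to the median of all cells of the same tumor, and the median ratio was 0.235. No cell of the table had under 490 UMIs, and 376 granulocytic cells (71.1%) had under 1000, so these cells lie near the lower limit of what was kept. Together they gave 562339 UMIs. Of 529 cell barcodes, 54 were also used in another library, as were 4990 of 87940 barcodes of the whole table. A single tumor, the CC001 isotype tumor of pool 12, gave 115 of the 529 cells (21.7%), so comparisons between tumors that rest on it are given with and without it. Levels pooled over all granulocytic cells include it. It gave 2757 of their 3491 Retnlg UMIs and 8077 of their 16203 S100a9 UMIs.

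The label was set beside the marker genes. S100a8, S100a9, Csf3r and Cxcr2 came with the label and the clusters were made from expression, so their levels describe the choice. Levels are given as CPM, the UMIs of a gene per 1000000 UMIs of the summed cells. S100a8 and S100a9, which encode the subunits of calprotectin, the main cytosolic protein of neutrophils, reached 25013 and 28814 CPM, against 98.7 and 36.5 CPM in monocyte cluster 4, the next highest cluster for both. Csf3r, the receptor for granulocyte colony-stimulating factor, reached 1469 CPM against 74.8 in cluster 4. Cxcr2, the receptor for the neutrophil chemokines, reached 630 CPM against 1.95 in cluster 12. A UMI of S100a8 was found in 86.6% of the cells, of S100a9 in 83.4%, of Csf3r in 70.3% and of Cxcr2 in 40.1%, and 383 cells (72.4%) had a UMI of calprotectin together with a UMI of either receptor. RNA set free from broken cells gives a background in droplets: T and NK cells, which should lack calprotectin, had a UMI of S100a8 or S100a9 in 0.424% of cells at a median of 1918 UMIs. Of all S100a8 and S100a9 UMIs in the table, 83.1% lay in the granulocytic cells.

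**Figure D1:**
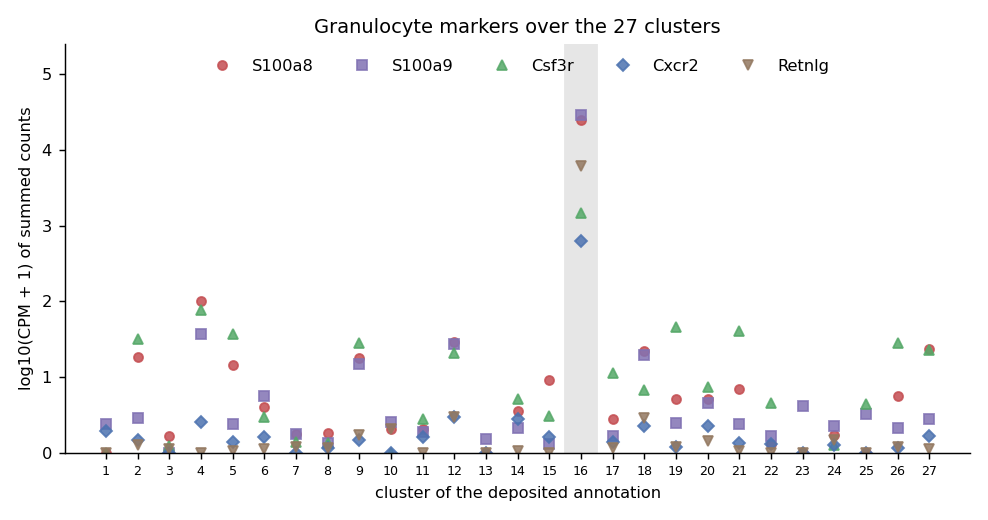
Levels of S100a8, S100a9, Csf3r, Cxcr2 and Retnlg (log10 of CPM + 1, summed counts) in each of the 27 clusters, with cluster 16 shaded. All 5 genes are highest in cluster 16, where S100a9 reaches 28814 CPM, while S100a8 stays at or below 98.7 CPM in every other cluster.

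Of the 14 granulocytic markers on the list used, all 14 were higher in these cells than in any other cluster, and 13 reached 100 CPM. The exception was Ly6g, the surface antigen often used to sort mouse neutrophils, at 40.9 CPM with a UMI in 3.21% of cells. The largest ratio to all other cells was that of Retnlg, a resistin-like protein of neutrophils, with 6208 CPM against 0.196 CPM. S100a9, Stfa2l1, G0s2, Il1f9, Cstdc4, S100a8, Asprv1, Cxcr2 and Wfdc21 followed. G0s2, an inhibitor of fat breakdown, reached 3870 CPM, and Hdc, which makes histamine, reached 2255 CPM. Il1r2, the decoy receptor for interleukin-1, reached 2226 CPM and was found in 70.3% of cells.

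The promoters of S100a9 and Retnlg are shown because these genes had the largest ratios to the other cells. Capitals mark TTNNGNAA on either strand, a loose form of the motif bound by C/EBP factors, which act in granulocyte development. Both are RefSeq promoters of build GRCm38.p6, from 250 bases before to 50 after the gene's start. The promoter of S100a9 lies at chr3:90695672-90695971 on the minus strand and that of Retnlg at chr16:48872358-48872657 on the plus strand.
S100a9: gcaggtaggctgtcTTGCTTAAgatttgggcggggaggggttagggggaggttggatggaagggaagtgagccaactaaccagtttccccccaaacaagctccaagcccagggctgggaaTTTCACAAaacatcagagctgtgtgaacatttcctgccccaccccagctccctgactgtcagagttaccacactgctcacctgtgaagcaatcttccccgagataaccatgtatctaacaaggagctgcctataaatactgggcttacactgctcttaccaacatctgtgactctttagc
Retnlg: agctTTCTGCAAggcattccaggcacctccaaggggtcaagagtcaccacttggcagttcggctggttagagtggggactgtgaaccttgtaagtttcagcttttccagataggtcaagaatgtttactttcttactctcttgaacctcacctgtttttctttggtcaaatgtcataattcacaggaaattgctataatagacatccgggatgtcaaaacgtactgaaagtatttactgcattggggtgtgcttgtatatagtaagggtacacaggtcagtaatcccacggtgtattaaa
Of the 20 leading genes, 16 had a promoter in the table and 8 of these (50%) held the motif, against 40.7% of 32851 promoters of the same length, so the match is a description of these windows.

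Primary granule genes were low and most genes of late stages high. Primary granule genes, which are transcribed in promyelocytes, were nearly absent: 4 of 6 (Mpo, Elane, Ctsg and Ms4a3) had no UMI, which allows up to 5.33 CPM, and Prtn3 and Prss57 had 1 UMI each. Of 8 secondary granule genes, which are transcribed in myelocytes, 3 reached 100 CPM, namely Lcn2 at 653, Chil3 at 153 and Mmp8 at 114 CPM, and 4 were higher than in any other cluster, while Camp, Ngp and Ltf stood at 3.56, 16 and 23.1 CPM and Fcnb at 0. Lcn2 stood at 2285 CPM in the CC001 isotype tumor of pool 12, against a median of 201 CPM over the 18 tumors with at least 10 granulocytic cells. Among genes of the tertiary granules and of late maturation, 6 of 8 reached 100 CPM. The transcription factor gene Mxd1 reached 1494 CPM, Hp (haptoglobin) 690 CPM and the gelatinase gene Mmp9 528 CPM. All 6 genes of the NADPH oxidase, the enzyme complex of the respiratory burst, were present between 212 CPM (Cybb) and 1163 CPM (Cyba), and their sum of 3128 CPM was close to the 3339 CPM of cluster 4.

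The cells carried much RNA of inflammatory cytokines. Cxcl2, itself a ligand of Cxcr2, reached 18957 CPM and was found in 80.0% of cells, and Il1b reached 13339 CPM and 90.0%. Ccl4, Ccl3, Ccl6 and Il1rn, the antagonist of interleukin-1, followed with 2431, 1599, 1319 and 1286 CPM. Cxcl3, another Cxcr2 ligand, reached 916 CPM in 13.6% of cells, while Cxcl1 stood at 26.7 CPM. Since a deeper cell shows more genes, cells were also thinned at random to 500 UMIs. At that depth 77.9% of granulocytic cells, 12.3% of cluster 4 monocytes and 28.7% of cluster 2 macrophages had a UMI of Cxcl2, and 86.6%, 48.4% and 51.6% had a UMI of Il1b. Of T and NK cells at that depth, 0.982% had a UMI of Cxcl2 and 1.28% a UMI of Il1b. Unthinned shares in clusters 4 and 2 were 20.5% and 46.3% for Cxcl2 and 70.5% and 78.5% for Il1b, at medians of 2483.5 and 3881 UMIs.

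Of 12 genes often tied to suppressor activity, 8 reached 100 CPM, and the members differed widely. Ptgs2, which starts prostaglandin synthesis, was the highest with 1490 CPM, followed by Cd274, which encodes the PD-1 ligand PD-L1, with 1179 CPM, and the receptor gene Trem1 with 731 CPM. Arg2, the mitochondrial arginase, reached 350 CPM in 27% of cells. Arg1 stood at 180 CPM in 2.84% of cells, against 544 CPM over all other cells, and Nos2 at 12.4 CPM. Il10 and Slc27a2 had no UMI. At 500 UMIs, Arg1 was found in 2.08% of granulocytic cells, 22.2% of cluster 2 macrophages and 0.966% of T and NK cells, and Arg2 in 18.9%, 1.27% and 0.0333% (unthinned 2.84%, 45.1% and 3.16% for Arg1 and 27%, 8.27% and 0.258% for Arg2).

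Among chemotaxis and growth factor receptors, 9 of 11 reached 100 CPM, with Cxcr4 at 797, C5ar1 at 672 and Fpr1 at 304 CPM beside Csf3r and Cxcr2. Of 21 genes of the interferon response, 20 reached 100 CPM. Isg15 (2129 CPM), Ifitm1 (1951 CPM) and Rsad2 (658 CPM) were 6.23, 6.32 and 9.50 times their level in all other cells, whereas Cxcl9 (105 CPM) was 0.145 times and Gbp4 (28.5 CPM) 0.510 times theirs. Mcl1, a survival factor that neutrophils depend on, reached 2292 CPM and was found in 81.7% of cells. Siglecf, a marker of a tumor neutrophil state and of eosinophils, had 7 UMIs in all.

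Markers of lymphocytes, MC38 and other granulocytes were low, and macrophage markers less so. All 4 B cell markers and all 4 MC38 markers had no UMI. Of the 7 eosinophil and 7 measured basophil or mast cell markers, 4 and 4 had no UMI, and the highest, Siglecf and Mcpt8, stood at 12.4 and 10.7 CPM. The 8 macrophage markers summed to 1400 CPM, led by Apoe with 533 CPM, against 1887 CPM in monocyte cluster 4 and 7422 CPM in cluster 2, and 5 of the 8 reached 100 CPM. Of the cells, 19 (3.59%) had at least 5 UMIs of these markers. The 6 T and NK cell markers summed to 124 CPM.

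The cells were not uniform. After thinning to 500 UMIs, 170 of 529 cells (32.1%) had a UMI of Retnlg, and other granulocyte genes went along with it. Cells with Retnlg had on average 29.7 UMIs of S100a9 and 23.8 of S100a8, against 8.14 and 7.77 in the 359 cells without. A UMI of the secondary granule gene Lcn2 was found in 30.0% against 8.64%, of Hp in 39.4% against 16.4% and of Ccl6 in 48.8% against 26.5%. The reverse held for Cd274 (13.5% against 38.2%), Il1rn (21.2% against 45.7%), the MHC class I gene H2-K1 (24.7% against 49.6%), Ccl4 (9.41% against 29.2%) and Isg15 (28.2% against 44.8%). Csf3r, Cxcr2 and Cxcl2 differed by less than G0s2, which was found in 44.7% against 36.5%. These are descriptions over cells, and the genes were also used in the clustering.

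Retnlg was unevenly spread over tumors. In the CC001 isotype tumor of pool 12, 85 of 115 cells (73.9%; exact 95% interval 64.9% to 81.7%) had a UMI of Retnlg after thinning, and over the other tumors 85 of 414 (20.5%). Among the other tumors with at least 10 granulocytic cells the share ran from 0% to 60%, the latter being 9 of 15 cells of the CC007 isotype tumor of pool 6. The other CC001 tumors together had 20% of 60 cells. Without the CC001 isotype tumor of pool 12, the contrast between cells with and without Retnlg was still present: S100a9 had 26.1 against 7.53 UMIs, Ccl6 was found in 54.1% against 28%, Cd274 in 23.5% against 40.7%, Il1rn in 30.6% against 48.9% and H2-K1 in 29.4% against 49.5%. Lcn2 was closer, at 12.9% against 6.69%. Within that tumor, where 30 cells had no Retnlg, S100a9 (33.4 against 14.9 UMIs), Ccl6 (43.5% against 10%) and H2-K1 (20% against 50%) went the same way, but Il1rn was found in 11.8% against 10% and Isg15 in 21.2% against 6.67%. The intervals cover counting error only.

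**Figure D2:**
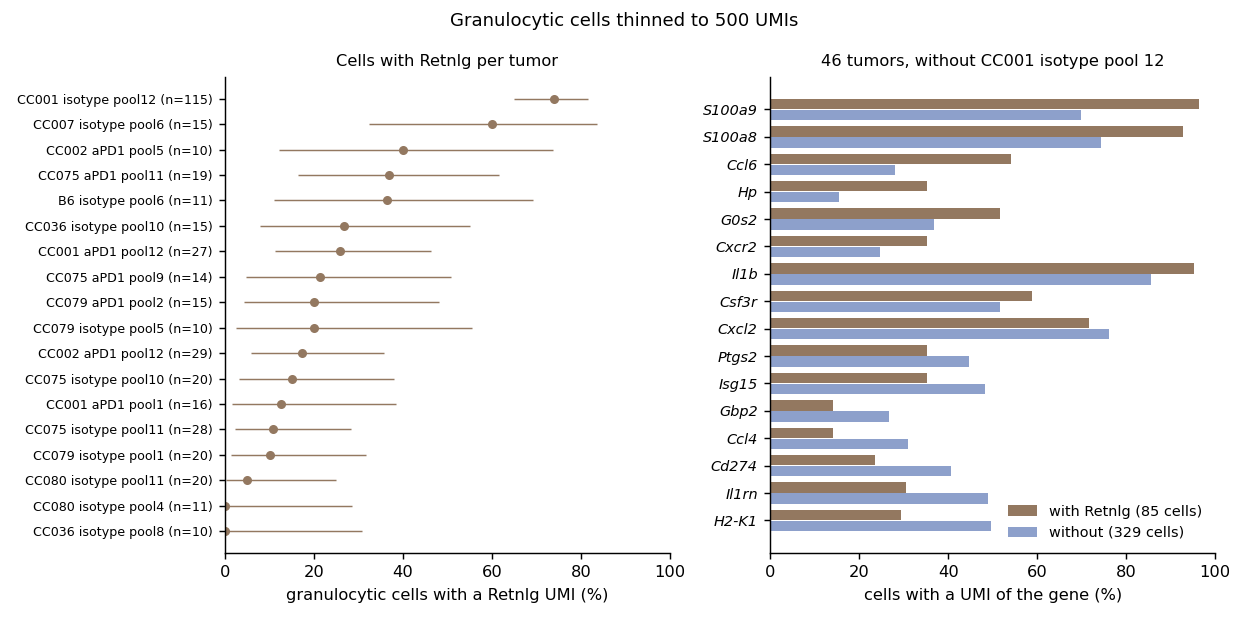
Left, share of granulocytic cells with a Retnlg UMI after thinning to 500 UMIs, in the 18 tumors with at least 10 such cells, with exact 95% intervals. Right, share of cells with a UMI of each gene among cells with (85) and without (329) Retnlg, leaving out the CC001 isotype tumor of pool 12, which has the highest Retnlg share (73.9%); S100a9, Ccl6 and Hp are found more often with Retnlg, and Cd274, Il1rn and H2-K1 more often without.

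Levels were next compared over the 18 tumors with at least 10 granulocytic cells, which held 405 cells and 7952 to 122988 granulocytic UMIs each. S100a9 ran from 6559 CPM (CC075 aPD1, pool 9) over a median of 22968 to 65673 CPM (CC001 isotype, pool 12), and the lowest of these values lay above the highest level in the other cells of the same tumors, 45.6 CPM. S100a8 ran from 7184 to 53021 CPM with the same tumors at the ends. Retnlg was uneven: it had no UMI in the CC036 isotype tumor of pool 8 or the CC080 isotype tumor of pool 4, a median of 1279 CPM, and 22417 CPM in the CC001 isotype tumor of pool 12. The next highest was the CC075 aPD1 tumor of pool 11, at 6787 CPM.

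Csf3r (685 to 3284 CPM), Cxcr2 (228 to 1023 CPM), Hdc (857 to 3580 CPM) and Il1b (4588 to 26826 CPM) were found in all 18 tumors and varied less. Cd274 ran from 179 CPM in the CC001 isotype tumor of pool 12, the lowest, to 3348 CPM in the CC080 isotype tumor of pool 4. In the CC001 aPD1 tumor of pool 12, the partner of the former in the same library, Cd274 stood at 2814 CPM and Retnlg at 1608 CPM. That pair therefore differed in Retnlg and Cd274 in opposite directions. The other pair with 10 cells in both members, CC075 of pool 11, went the other way by treatment, with Retnlg at 6787 CPM after aPD1 and 837 CPM after isotype, and Cd274 at 891 and 1850 CPM. Cxcl2 ran from 938 to 39548 CPM and Ptgs2 from 248 to 4099 CPM, with isotype and aPD1 tumors overlapping for both.

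**Figure D3:**
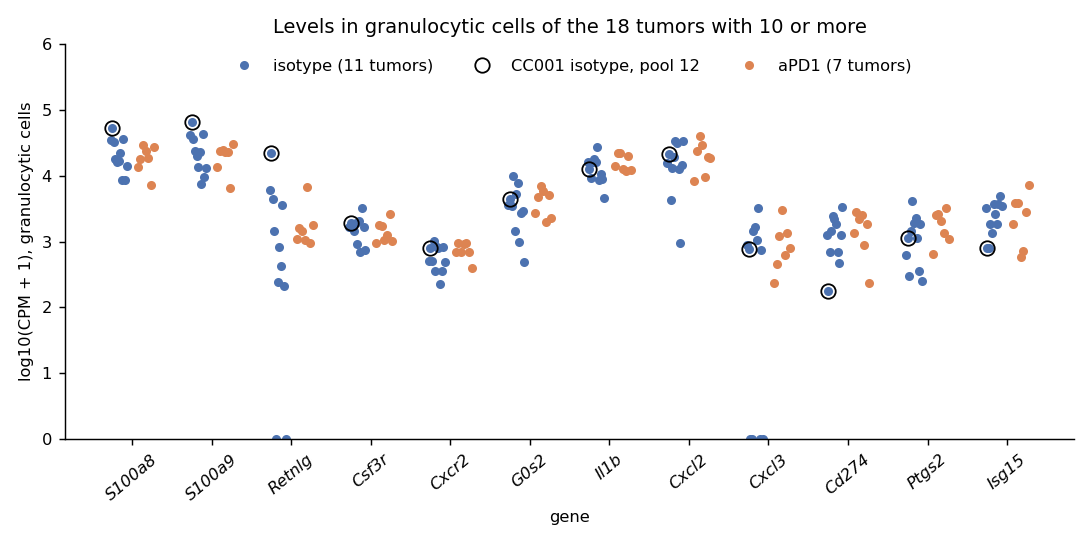
Levels of 12 genes in granulocytic cells (log10 of CPM + 1) in the 11 isotype and 7 aPD1 tumors with at least 10 granulocytic cells; each point is a tumor and the ring marks the CC001 isotype tumor of pool 12. The ringed tumor is the highest for S100a8, S100a9 and Retnlg (22417 CPM) and the lowest for Cd274 (179 CPM), and the points of both treatments overlap for every gene shown.

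The share of granulocytic cells was under 1% in 40 of 48 tumors, with a median of 0.417%. CC001 isotype tumors had 0.443%, 0.242%, 0.0536% and 6.00% (115 of 1916 cells; exact 95% interval 4.98% to 7.16%), and CC001 aPD1 tumors 0.596%, 0.0503%, 0.289% and 1.22%, in pools 1, 2, 4 and 12. CC002 isotype tumors had 0.420%, 0.364% and 0.403% and CC002 aPD1 tumors 0.0776%, 0.352% and 1.03%, in pools 3, 5 and 12. The tumor at 6.00% stood far above all others, and pool 12 also gave the highest aPD1 tumors of both strains. CC075 isotype tumors had 0.190%, 1.05% and 1.73% and CC075 aPD1 tumors 0.733%, 0.484% and 1.17%, in pools 9, 10 and 11.

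Of the non-responder strains, CC036 isotype tumors had 1.20%, 0.406% and 0.821% and CC036 aPD1 tumors 0.490%, 0.451% and 0.154%, in pools 8, 9 and 10. CC079 isotype tumors had 0.766%, 0.109% and 0.421% and aPD1 tumors 0.119%, 0.652% and 0.225%, in pools 1, 2 and 5. CC080 isotype tumors had 0%, 0.469% and 0.858% and aPD1 tumors 0.181%, 0.0539% and 0.414%, in pools 3, 4 and 11. The 0 of 2989 cells in the CC080 isotype tumor of pool 3 allows a share of up to 0.100% by the rule of 3 counts (exact 95% interval up to 0.123%), and tumors of a strain differed among pools about as much as strains did. B6 isotype tumors had 0.368%, 0.580% and 0.228% and aPD1 tumors 0.186%, 0.0682% and 0.113%, in pools 6, 7 and 8. CC007 isotype tumors had 0.487% and 0.252% and aPD1 tumors 1.89% (1 of 53 cells) and 0.648%, in pools 6 and 7. All 3 B6 aPD1 tumors lay below all 3 B6 isotype tumors, both CC007 aPD1 tumors lay above both CC007 isotype tumors, and the treatments overlapped in the other 6 strains. The B6 shares rest on 5, 1 and 2 granulocytic cells after aPD1 and on 11, 2 and 5 after isotype. The CC007 shares rest on 1 and 7 cells after aPD1 and on 15 and 4 after isotype. Treatment was not tested within a strain.

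**Figure D4:**
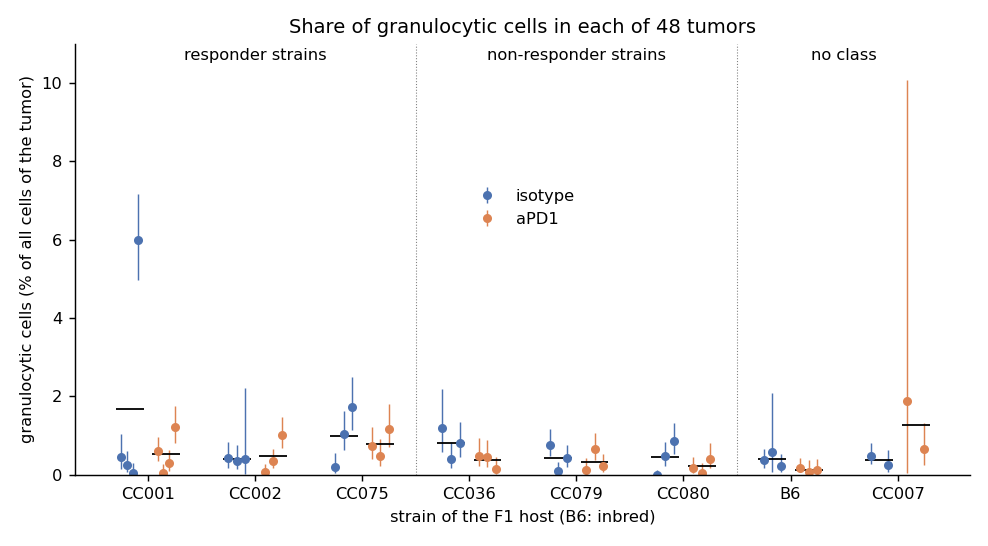
Granulocytic cells as a percentage of all cells in each of the 48 tumors, by strain and treatment; points are tumors with exact 95% binomial intervals and black lines are group means. The CC001 isotype tumor of pool 12 is at 6.00%, and 40 tumors are under 1%.

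The first question was whether the share differed between strains that respond to aPD1 and those that do not. Class belongs to the strain, while tests between classes took tumors as units, so their p-values leave out the spread between strains of a class. Isotype tumors of responder strains had 1.09 ± 1.80% (SD, n = 10) and those of non-responder strains 0.561 ± 0.384% (n = 9), a difference of 0.529 points that was within the spread (exact permutation test, two-sided, p = 0.579, adjusted p = 0.694 over 7 tests). It became −0.0164 points without the CC001 isotype tumor of pool 12. With the pool as block it was 0.0812 points, over the pools that hold both classes. That leaves out pools 8 and 12, and so the CC001 isotype tumor of pool 12. In aPD1 tumors the means were 0.599 ± 0.428% (n = 10) and 0.305 ± 0.203% (n = 9), a difference of 0.295 points (exact permutation p = 0.0786, adjusted p = 0.335). It was 0.0271 points in pools 1 to 5 (exact permutation p = 0.825), 0.548 points in pools 8 to 12 (exact permutation p = 0.0238, not adjusted) and 0.164 points without pool 12, which holds responder strains alone. With the pool as block it was 0.188 points, again without pools 8 and 12. Of the 10 responder aPD1 tumors, 4 lay above all 9 non-responder ones.

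The second question was whether aPD1 changed the share within 48 h. Shares after aPD1 were lower by 0.491 points in responder strains (permutation p = 0.595). Without the CC001 isotype tumor of pool 12 this effect reversed, and shares after aPD1 were 0.0547 points higher. In non-responder strains shares after aPD1 were lower by 0.257 points (exact permutation p = 0.0956, adjusted p = 0.335). These effects did not differ beyond the spread (difference −0.234 points, exact permutation p = 0.897), a test over the tumor pairs of a strain in a pool, and the difference was 0.243 points without the CC001 pair of pool 12, both tumors left out. Paired within strain and pool, 9 of 24 aPD1 tumors were higher and 15 lower than their isotype partner, with a mean difference of −0.260 points (permutation p = 0.286), which was −0.0629 points without the CC001 pair of pool 12. Isotype and aPD1 tumors carried different hashtags throughout, so hashtag and treatment cannot be told apart.

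A difference between strains did not pass over 24 means of the tumor pair of a strain in a pool (Kruskal-Wallis H = 8.54, permutation p = 0.294, adjusted p = 0.515). Strain medians ran from 0.207% in B6 to 0.893% in CC075 hosts. Libraries differed as well: pools 1 to 6 had a median share of 0.321% and pools 7 to 12 of 0.535%, and pool 12 reached 2.39% of its cells, or 1.08% without its CC001 isotype tumor, against 0.145% to 1.00% in the other pools. Strains were not spread evenly over pools, and the part of the pool in these shares was not tested beyond the within-pool values given with the alternatives.

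Whether the share went along with neutrophil chemokines made by the other cells was asked over the 48 tumors. The log2 share correlated with the level of Cxcl3 in all other cells (Pearson r = 0.443, permutation p = 0.00148, adjusted p = 0.00888 over 6 relations; Spearman rho = 0.456, permutation p = 0.00132, adjusted p = 0.00792), and r was 0.470 without the 2 tumors farthest from the median level. Within pools 1 to 6 r was 0.257 (permutation p = 0.223) and within pools 7 to 12 it was 0.385 (permutation p = 0.0645), so the relation did not pass within either set of libraries. Cxcl2 gave r = 0.334 (permutation p = 0.0207, adjusted p = 0.0621; rho = 0.329, permutation p = 0.0233), with 0.265 in pools 1 to 6 and −0.0471 in pools 7 to 12, and 0.328 without the 2 farthest tumors. Cxcl1, Cxcl5, Il1b and the share of T and NK cells gave r between 0.0544 and 0.244, with permutation p-values from 0.0949 to 0.713, and rho between 0.0778 and 0.299, with permutation p-values from 0.0393 to 0.601 (adjusted p from 0.0787 to 0.601). The granulocytic cells make Cxcl3 themselves at 916 CPM against 23.7 CPM in the other cells, and how much of the level in other cells was free granulocyte RNA was not tested. Levels in other cells ranged over tumors from 0 to 6.84 for Cxcl3 on the log2(CPM + 1) scale.

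For genes of the granulocytic cells, UMI counts were summed per tumor and compared over tumors with at least 10 such cells, by edgeR's quasi-likelihood test with Benjamini-Hochberg adjustment. Strain was a term of the fit, so the treatment contrast rested on the 5 aPD1 and 5 isotype tumors of CC001, CC075 and CC079, the strains with both. Between 7 aPD1 and 11 isotype tumors in all, none of 311 genes tested passed an adjusted p of 0.05 (0% called, 10 genes at an unadjusted p under 0.05, and by DESeq2 none passed and 11 had an unadjusted p under 0.05). The 3 genes of smallest p in each direction, none past the threshold, were Cd74 (log2 fold change 2.09 ± 0.73 SE), Rpl37a and Rpl35a with higher and Pkm, Msn and Ifitm1 with lower fitted values after aPD1, all with an adjusted p of 0.973. The SE here and below is the size of the log2 fold change over the square root of the test's F value, and was not estimated by the fit. For Cd74, 1 cell each gave 82.8%, 62.3% and 85.4% of the UMIs in the aPD1 tumors of CC001 pool 1, CC075 pool 11 and CC079 pool 2. S100a8, S100a9, Csf3r and Cxcr2 were all tested, with log2 differences from −0.71 to 0.11. Of 21 interferon response genes 11 were tested, with a median of 0.43 against 0.05 over all 311 genes, and of 13 cytokine genes 9, with a median of −0.01. Of the lists used, none had a member past the threshold.

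Between 9 tumors of responder and 7 of non-responder strains, none of 830 genes passed (0% called, 82 genes at an unadjusted p under 0.05, 19 with the set of pools as a term and 11 with the pool as block, and by DESeq2 none passed and 69 had an unadjusted p under 0.05). S100a8, S100a9, Csf3r and Cxcr2 had fitted log2 differences of 0.26 to 0.73 in responder strains, all 6 tested genes of tertiary granules and late maturation had positive values (median 0.50) and so had 11 of 12 granulocytic markers, against a median of 0.00 over all genes, and none passed. Without the CC001 isotype tumor of pool 12 these directions did not all hold: S100a8 stood at −0.02, S100a9 at −0.23, Csf3r at 0.22 and Cxcr2 at 0.77, and 4 of 6 late-maturation genes and 8 of 12 granulocytic markers were positive. The genes of smallest p were Gbp5, Dusp16 and Samhd1 with higher and Spg11, Cd74 and S100a10 with lower values in responder strains, at adjusted p-values of 0.32. These fits took tumors as units, while class belongs to the strain. With counts summed per strain, none of 1136 genes passed by edgeR over 6 strains, and 32 had an unadjusted p under 0.05.

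Gbp5, a guanylate-binding protein induced by interferon gamma, had a mean of 657 CPM in responder and 159 CPM in non-responder tumors (log2 fold change 2.64 ± 0.74 SE, adjusted p = 0.320 by edgeR). In responder strains it ran from 48.8 CPM (CC001 isotype, pool 12) to 1454 CPM (CC075 isotype, pool 11), and in non-responder strains from 0 to 372 CPM, so the groups overlapped. Only in tumors of responder strains did Gbp5 reach the filter on low counts. Without the CC001 isotype tumor of pool 12 its adjusted p was 0.00931, and without CC075 hosts its log2 fold change was 0.72 (adjusted p = 0.978). Cd74, the invariant chain of MHC class II, had 12159 CPM in the CC079 aPD1 tumor of pool 2 and 9566 CPM in the CC079 isotype tumor of pool 1, against 124 to 5176 CPM in the other tumors. In those tumors 1 cell each gave 85.4% and 62.1% of the Cd74 UMIs, and these cells had 5590 and 9233 UMIs, far above the median of 815. Whether such cells were doublets or cells of another type was not tested.

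The difference of the aPD1 effect between the classes rested on 1 non-responder aPD1 tumor, and none of 830 genes passed (0% called, 29 genes at an unadjusted p under 0.05, and by DESeq2 none passed and 29 had an unadjusted p under 0.05). Tgfbi and Rgs1 were among the genes of smallest p with positive values, and Mcemp1, Cst3 and Hspa5 had the smallest p with negative values, all with an adjusted p of 1.00.

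Between hosts, 2 of 816 genes passed (0.245% called, 78 genes at an unadjusted p under 0.05), while DESeq2 called 7, these 2 among them. With only the cells that had calprotectin and receptor UMIs, in 12 tumors, none passed by edgeR (15 genes at an unadjusted p under 0.05), and both genes had an adjusted p of 0.198. BC018473 is an antisense-class noncoding transcript at 11:116752167-116759373 (plus strand, GRCm38, from the GENCODE annotation) and was also one of the 20 leading genes of these cells, with 834 CPM against 158 CPM in T/NK cluster 23, the next highest. In the granulocytic cells of CC001 hosts it stood at 1109, 3166 and 1431 CPM, of CC075 hosts at 720, 1328, 1456 and 969 CPM and of CC080 hosts at 1409 and 3844 CPM. CC036 hosts had 170 and 241 CPM, CC079 hosts 115, 28.6 and 0 CPM, the CC007 host 99.5 CPM, and both CC002 tumors and the B6 tumor 0 CPM. CC001, CC075 and CC080 tumors thus lay above all others without overlap, a split drawn from these same values. The edgeR test asked whether any of the 8 strains differed (adjusted p = 0.000637) and not about this split. How many of the 816 genes set some strains apart in this way was not counted. BC018473 reached the filter on low counts, where 1 tumor was enough, in tumors of these hosts alone. In all 6 tumors of B6 and all 6 of CC002 hosts there was no UMI among 28505 and 59087 granulocytic UMIs, which allows up to 105 and 50.8 CPM.

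The other cells took no part in that test but come from the same animals and libraries, and they split in a partly like way. The sets of hosts below were drawn with these values known, so their lack of overlap is a description. In them BC018473 stood between 3.43 and 37.3 CPM in all 26 tumors of CC001, CC036, CC075 and CC080 hosts, and between 0 and 0.575 CPM in all 22 tumors of the other hosts. CC036 hosts were thus among the higher strains in the other cells, at 4.39 to 28.5 CPM, while in the tumors with at least 10 granulocytic cells these cells lay below those of CC001, CC075 and CC080 hosts. In tumors with fewer cells the ranges overlapped: 2 CC036 tumors stood at 740 CPM, from 2 and 4 UMIs, and some CC001, CC075 and CC080 tumors had no UMI.

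Ftl1-ps1, at 13:74399694-74407346 (plus strand), carries the annotation's retrogene tag, is named as a copy of Ftl1, the ferritin light chain of iron storage, and overlaps an antisense gene. In granulocytic cells of CC001 hosts it had 2392, 2663 and 2065 CPM, and of CC080 hosts 6696 CPM in pool 4 and 313 CPM in pool 11. Only these CC001 tumors and the CC080 tumor of pool 4 reached the filter on low counts. In the other strains it ran from 0 to 200 CPM in the tumors with at least 10 granulocytic cells (adjusted p = 0.00133 by edgeR across strains). Tumors of those strains with fewer cells reached 338 CPM (CC002 isotype, pool 3, 3 UMIs) and 311 CPM (CC079 aPD1, pool 1, 2 UMIs). In all other cells it stood at 1378 to 2215 CPM in the 8 CC001 tumors and at 20.1 to 74.2 CPM in the 34 tumors of hosts other than CC001 and CC080. The CC080 tumors differed among themselves there too: those of pools 3 and 4 had 1067 to 1556 CPM and both of pool 11 had 171 and 222 CPM. Whether the CC080 hosts of pool 11 were alike in genotype to those of pools 3 and 4 was not tested, which bears on every CC080 value. Ftl1-ps1 shares sequence with Ftl1, which had 4651 to 10852 CPM in the granulocytic cells of CC001 hosts, so reads could be split between them and the level is uncertain.

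**Figure D5:**
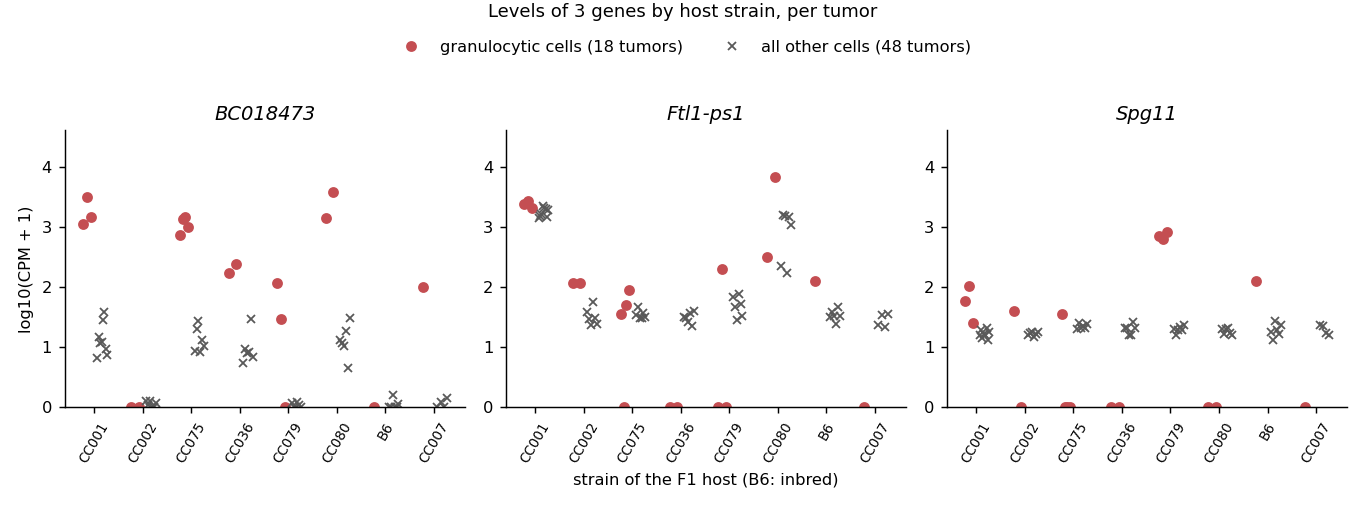
Levels (log10 of CPM + 1) of BC018473, Ftl1-ps1 and Spg11 by host strain, for the granulocytic cells of the 18 tumors with at least 10 of them (red points) and for all other cells of each of the 48 tumors (grey crosses). BC018473 is near 0 in both kinds of cell in CC002, CC079, B6 and CC007 hosts apart from up to 115 CPM in granulocytic cells. Ftl1-ps1 is high in CC001 and part of the CC080 tumors in both kinds of cell. Spg11 is higher in the granulocytic cells of the CC079 tumors shown, with no like difference in the other cells. Spg11 did not pass across strains (adjusted p = 0.0575 by edgeR).

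Spg11, a gene for a protein of lysosome upkeep, at 2:122053520-122118386, was the gene of smallest p between the response classes and the fourth across strains, where it was not past the threshold (adjusted p = 0.0575 by edgeR). It is described here after its values were seen. CC079 hosts had 688, 628 and 821 CPM in the tumors with at least 10 cells, and the other tumors of that size between 0 and 126 CPM, without overlap. How many other genes set a strain apart in this way was not counted. Spg11 reached the filter on low counts in CC079 tumors alone. A single tumor was enough there, so both tests held it only through the hosts where it was high. A single cell gave 58.3% of the UMIs in the first of these CC079 tumors and 59.1% in the second, and without it the levels were 304 and 267 CPM. Over all tumors, 17 of 55 granulocytic cells of CC079 hosts had a UMI (43 UMIs), against 12 of 474 cells of the other hosts (12 UMIs). In tumors with fewer than 10 cells the ranges overlapped. The CC079 aPD1 tumor of pool 1 and isotype tumor of pool 2 had no UMI, and the aPD1 tumor of pool 5 stood at 433 CPM from 2 UMIs. The CC001 isotype tumor of pool 2 stood at 308 CPM from 1 UMI. In the other cells Spg11 stood at 15 to 21.9 CPM in CC079 tumors and at 11.9 to 26.2 CPM in tumors of the other hosts, so the difference was not present there. Its adjusted p across strains was 0.0222 by DESeq2. By edgeR it was 0.670 in the cells with calprotectin and receptor UMIs. With the set of libraries (pools 1 to 6 or 7 to 12) as a term it was 0.967 by edgeR. All CC079 tumors came from pools 1, 2 and 5. Tumors of other strains with at least 10 granulocytic cells in those pools stood at 58.3 CPM (CC001 aPD1, pool 1) and 0 CPM (CC002 aPD1, pool 5).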

How the data were processed

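Each of the 12 libraries held 4 hashtagged tumors. Per the labels and the study's methods, the authors aligned 10x 5′ reads with Cell Ranger to GRCm38 with GENCODE vM23, assigned hashtags, removed cells of over 15% mitochondrial or 45% ribosomal UMIs and clustered with Seurat 5.0.1. They deposited raw UMI counts per gene and cell with a cell table, and the values were used as counts. No doublet caller was run here.

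A tumor was a library, strain and treatment. The groups came from the labels, and the response classes from the study. The members and gene lists were chosen with earlier results of these data known. Other-cell lists covered eosinophils, basophils or mast cells, macrophages, T and NK, dendritic and B cells, fibroblasts and MC38. Of the lists not described with the results, dendritic markers summed to 49.8 CPM and fibroblast markers to 19.6 CPM.

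Shares (percent) were compared by exact permutation, or by 100000 resamples with 10 or more tumors per group. Counts were summed per tumor of at least 10 granulocytic cells and fitted with edgeR 4.0.16 (R 4.3.3; TMM, filterByExpr, quasi-likelihood, Benjamini-Hochberg 0.05), with DESeq2 1.42.0 as an alternative. The filter on low counts kept a gene that reached its level in as many tumors as the smallest group held. That group held 7 tumors for treatment and 1 for the other comparisons, so there 1 high tumor was enough. Treatment was fitted with strain, and class with treatment but without a strain term. Python 3.11.15, scipy 1.17.1 and matplotlib 3.10.9 were used, and edgeR was tested on simulated data. Tumors held 53 to 3082 cells. Each tumor is taken as a separate animal, except that 1 animal identifier stands on 2 CC080 tumors (isotype pool 3 and aPD1 pool 4).

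Leading genes were the 20 of largest ratio to other cells among genes of at least 100 CPM found in 10% of the cells. In each comparison the genes past the threshold were named or, with none, the 3 of smallest p in each direction. Some genes that these rules or lists hold are not reported here. Tumors of a pool share a library by the labels, which gives the pairing, so a fit with the pool as block was an alternative. Others were filters, scaling, minimum cells, strict cells, sets of pools and leaving out strains or tumors.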

Additional observations from a re-analysis of the deposited data

Results flagged for a closer look

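In groups of 4 to 10 tumors, a tumor was listed when its gap to the nearest other tumor was large against the range of the group. Chance meets this criterion in about 1 in 20 groups of normally distributed values. The shares and levels here need not be so distributed, and their chance rate was not tested. For shares, the rule was applied to each group of class and treatment and to each of the 8 strains, so a tumor could be listed more than once. The share of 6.00% in the CC001 isotype tumor of pool 12 met it among the 10 responder isotype tumors and among the 8 CC001 tumors, and the share of 1.03% in the CC002 aPD1 tumor of pool 12 among the 6 CC002 tumors. Of 34 groups of gene levels, 4 had such a tumor. BC018473 in the other cells stood at 0.575 CPM in 1 of 6 B6 tumors (aPD1, pool 8) and at 28.5 CPM in 1 of 6 CC036 tumors (isotype, pool 8). In the granulocytic cells of the 7 aPD1 tumors, Retnlg stood at 6787 CPM in the CC075 tumor of pool 11 and Cxcl3 at 2996 CPM in the CC002 tumor of pool 5.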

How the results depend on the processing

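The number of cells limits these results: 30 of 48 tumors had under 10 granulocytic cells and did not enter the gene comparisons of the report, and only 1 non-responder aPD1 tumor did. Alternatives that leave out the tumor of most granulocytic cells, pool 12 or each tumor in turn were chosen after seeing the data. For the changes below, the cause was not tested.

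The difference of treatment effects on the share turned positive on the log2 scale (0.150), in pools 1 to 5 (0.0755 points), without CC001 (0.203), without the CC001 pair of pool 12 (0.243, both tumors left out) and without pool 12 (0.163). The class difference in isotype tumors turned to −0.0485 points in pools 1 to 5 and −0.0164 without the CC001 isotype tumor of pool 12 alone, the aPD1 effect in responder strains to 0.0547 without it, and the class difference in aPD1 tumors was 0.548 points in pools 8 to 12 (exact permutation p = 0.0238), against 0.0271 in pools 1 to 5 and 0.164 without pool 12. Of 114 alternative values for shares, the other 105 kept their direction and side of the threshold.

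For correlations, aPD1 tumors alone gave −0.0784 for Cxcl1, 0.180 for Cxcl2 and 0.256 for Cxcl3. Pools 1 to 6 gave −0.172, 0.265 and 0.257, and pools 7 to 12 gave −0.0471 for Cxcl2, 0.385 for Cxcl3 and −0.0322 for Il1b. Without the CC001 isotype tumor of pool 12, Cxcl1 gave −0.0214 and Il1b 0.337 (permutation p = 0.0215), and centred within strain Il1b gave 0.306 (permutation p = 0.0358).

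With tumors of at least 20 cells, 11 genes passed for aPD1 (7 higher, 4 lower, 7 tumors) and 68 across strains. These fits had 1 residual degree of freedom, and that for aPD1 rested on 1 tumor of each treatment, both of CC001 in pool 12. Without a filter on low counts, 18 passed between classes (4 higher, 14 lower), 1 for the difference of effects and 32 across strains. Without CC001 or without its isotype tumor of pool 12, 1 gene passed between classes, Gbp5 in both cases. Across strains DESeq2 called 7, and cells with both calprotectin and receptor UMIs gave 0, where BC018473 and Ftl1-ps1 had an adjusted p of 0.198 by edgeR. Leaving out each of 18 tumors gave 2 to 8. Rpl37a reversed to −0.035 for aPD1 in tumors of at least 20 cells, and Cst3 to 0.98 for the difference of effects in the strict cells.

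With the pool as replicate block no call changed. Class differences of the share were 0.0812 (isotype) and 0.188 points (aPD1), without pools 8 and 12, which do not hold both classes. The aPD1 effects were −0.491 and −0.257 points, and no gene passed for aPD1 or class by edgeR (2 and 11 at an unadjusted p under 0.05). The blocked fits of the difference of effects and of strains, and the former with tumors of at least 20 cells, were not run.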
